A study of Rattus norvegicus with 4 samples.

Results

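The axon-glia adhesion genes of oligodendrocytes were followed in the rat oligodendroglial line CG4 with and without raised Phf8. The set was chosen by name, as surface and membrane-linked proteins of the myelin sheath and the paranode, and holds 8 genes: Mag, Mog, Nfasc, Cntn1, Cntn2, Omg, Cadm4 and Ermn. Of these, 7 were among the 14410 genes of the expression table and all 7 passed the filter on low values, and Ermn was not analysed here. CG4 cells are glial progenitors that turn into oligodendrocytes when their growth factors are withdrawn, and the labels call all of them wildtype. The control cells (ctrl) had received a CAG-IRES-GFP retrovirus, and the Phf8oe cells a CAG-Phf8-IRES-GFP retrovirus, which adds the histone demethylase gene Phf8. In both groups GFP-positive cells were sorted, expanded and differentiated for 3 days before RNA was taken, and each group had 2 biological replicates. Separate transductions are not named in the labels, so p-values measure only the spread between these cultures. The cells were cultured without axons as far as the labels say, and whether axons were present was not tested. In bulk RNA, fewer cells of a type and less RNA per cell cannot be told apart.

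Myelin is held to the axon by proteins that sit in separate membrane zones. Along the internode, the innermost glial membrane carries Mag and Cadm4, which bind sugars and nectin-like proteins of the axon. At the paranode, the glial form of neurofascin meets contactin 1 and Caspr (Cntnap1) of the axon, and contactin 2 lies beside it at the juxtaparanode. Mog stands on the outermost face of the sheath and is among the last myelin genes to come on as oligodendrocytes mature.

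The values are counts scaled between libraries by the authors, called normalized counts below. Deposited totals lay between 39945215 and 41149255 per library, and an estimated 28400000 (Phf8oe replicate 2) to 47800000 reads (ctrl replicate 1) lay behind them. Phf8 itself stood at 2026 and 2205 in ctrl and at 5650 and 10796 in Phf8oe, so it was higher in both Phf8oe libraries, though it did not pass the threshold (log2 fold change 1.89, SE 0.35, limma adjusted p = 0.0631). Phf8 did pass in limma without robust variance moderation (adjusted p = 0.0194) and with the replicate block (adjusted p = 0.0313). It did not pass with other pseudocounts, filters or scalings, with limma-voom or with no variance trend. The log2 fold change of Phf8 was 2.35 with Phf8oe replicate 1 removed and 1.42 with Phf8oe replicate 2 removed. It was 1.82 with ctrl replicate 1 removed and 1.95 with ctrl replicate 2 removed. Phf8 was called in limma without either Phf8oe library and not without either ctrl library. Such a fit takes its spread only from the group that kept both libraries. The label of oligodendroglial cells was checked against defining markers: the lowest library held 173338 for Mbp and 88808 for Cnp, and the progenitor marker Pdgfra was between 9286 and 18113. The oligodendrocyte markers Mobp, Opalin and Aspa were at most 446 in any library. Gfap, an astrocyte marker, stood at 79141 and 80736 in ctrl and 10834 and 19613 in Phf8oe. These levels therefore do not show oligodendroglial cells alone. A gene was called changed at a Benjamini-Hochberg adjusted p under 0.05 over all 14368 genes tested in limma.

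Of the 7 adhesion genes measured, Mag and Mog rose in Phf8oe, and the remaining 5 did not pass the test. Mag rose 1.71-fold and Mog 1.6-fold. In Nfasc, Cntn1 and Cntn2 every Phf8oe library exceeded every ctrl library, the groups standing apart at 1.33, 1.26 and 1.5 times the ctrl level on the fitted scale, while Omg and Cadm4 overlapped between the groups. Among all tested genes 7.64% were called in either direction and 2.99% were called higher, and among the 6775 genes with a mean of at least 1000 normalized counts 3.88% were called higher. The groups did not overlap for 5 of the 7 genes, all higher in Phf8oe, against 57.6% of all tested genes in either direction and 28.9% higher. An unadjusted p under 0.05 was reached by 4 of the 7, against 26.3% of all tested genes. The median log2 fold change was 0.41 over the 7 genes and 0.003 over all tested genes.

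**Figure D1:**
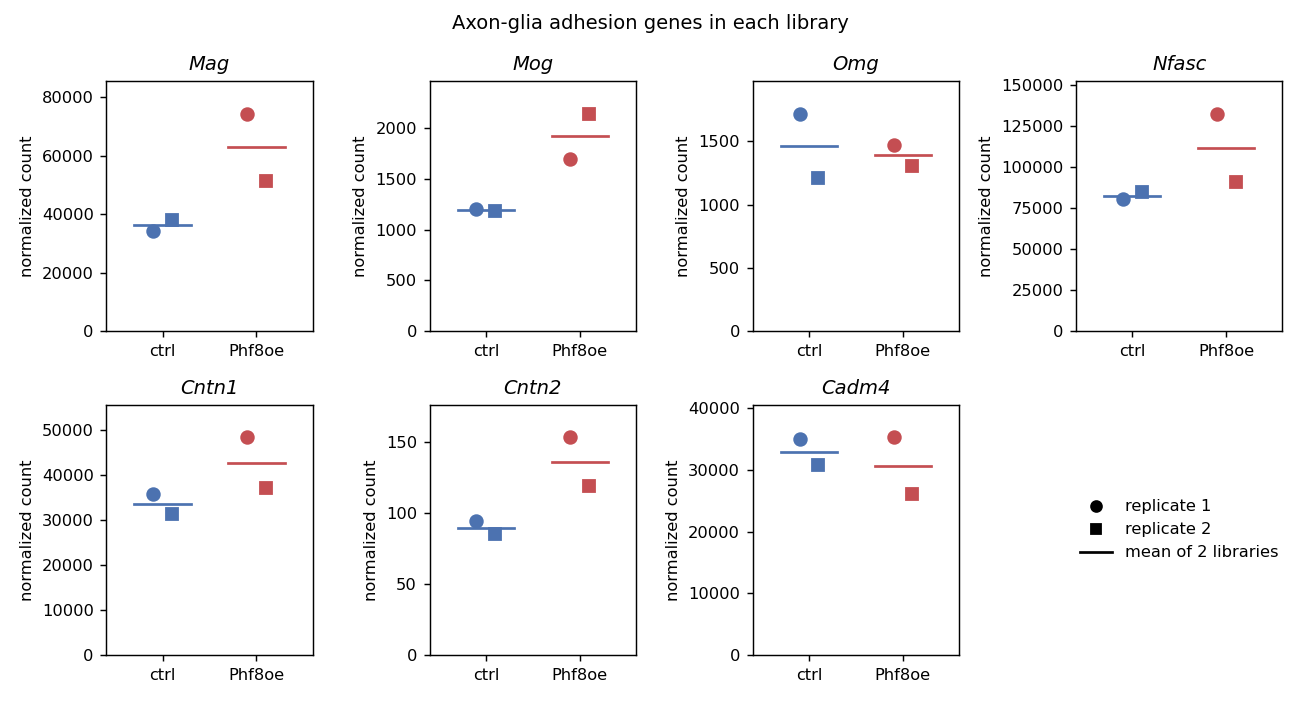
Normalized counts (vertical axes, from 0) of 7 adhesion genes in the ctrl and Phf8oe libraries; circles are replicate 1, squares replicate 2 and lines the mean of 2 libraries. Mag runs from 34219 to 38178 in ctrl and from 51497 to 74351 in Phf8oe, and Omg and Cadm4 overlap between the groups.

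Mag, myelin-associated glycoprotein, is a sialic acid-binding lectin of the immunoglobulin superfamily that faces the axon and binds its gangliosides. It was measured at 34219 and 38178 normalized counts in ctrl replicates 1 and 2, and at 74351 and 51497 in Phf8oe replicates 1 and 2. Both Phf8oe libraries were above both ctrl libraries, the lower of them 1.35 times the higher ctrl library. The Phf8oe libraries differed from each other by 1.44-fold, and replicate 1 was the higher. The log2 fold change was 0.78 (SE 0.18, 95% interval 0.36 to 1.19, limma adjusted p = 0.0442), and 3.28% of all tested genes had a larger increase. The call of Mag was lost without robust variance moderation (adjusted p = 0.0598), with no variance trend (adjusted p = 0.178) and with the replicate block (adjusted p = 0.097). The log2 fold change was 0.70 without ctrl replicate 1 and 0.85 without ctrl replicate 2. It was 0.51 without Phf8oe replicate 1 and 1.04 without Phf8oe replicate 2. The call was lost without either ctrl library and kept without either Phf8oe library. Such a fit takes its spread only from the group that kept both libraries, so neither outcome tells how firm the call is.

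Mog, myelin oligodendrocyte glycoprotein, is an immunoglobulin superfamily protein found on the outer surface of central myelin and is made by oligodendrocytes but not by Schwann cells. Mog had 1199 and 1178 normalized counts in the ctrl libraries, against 1698 and 2139 with added Phf8. The ctrl libraries were nearly equal, and both Phf8oe libraries lay above them, replicate 2 being the higher by 1.26-fold. The log2 fold change was 0.68 (SE 0.13, 95% interval 0.38 to 0.98, limma adjusted p = 0.0194). The call was lost with either ctrl library left out, fits whose spread comes from the Phf8oe libraries alone. The size was 0.69 when ctrl replicate 1 was dropped and 0.67 when ctrl replicate 2 was, the ctrl libraries being nearly equal. It moved further with the other group, to 0.85 without Phf8oe replicate 1 and 0.51 without Phf8oe replicate 2. The call of Mog was also lost with no variance trend (adjusted p = 0.145) and with the replicate block (adjusted p = 0.0564). In the GRCr8 assembly of RefSeq, Mog overlaps Zfp57, a zinc finger gene that stood at 426 and 530 in ctrl and 590 and 631 in Phf8oe (adjusted p = 0.184). The sources used here do not say whether reads were counted by strand.

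Omg, the oligodendrocyte-myelin glycoprotein, is a leucine-rich repeat protein held in the membrane by a lipid anchor and, like Mag, binds the Nogo receptor. It stood at 1719 and 1214 in ctrl and 1474 and 1304 in Phf8oe. The ctrl libraries enclosed both Phf8oe libraries, and the log2 fold change was -0.06 (SE 0.17, 95% interval -0.46 to 0.34, limma adjusted p = 0.861). Its sign turned without ctrl replicate 1 (0.19) and without Phf8oe replicate 2 (0.03). Omg lies inside Nf1 on the opposite strand in the RefSeq assembly, so its reads may not be separable from those of Nf1, a Ras regulator that stood at 3773 and 4110 in ctrl and 3240 and 2653 in Phf8oe (adjusted p = 0.0631).

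Nfasc encodes neurofascin, an adhesion protein of the L1 family whose glial form builds the paranode and whose neuronal forms sit at nodes and axon initial segments. A count per gene does not separate these forms. Nfasc was measured at 80573 and 84393 in ctrl and at 132341 and 90688 in Phf8oe. Phf8oe replicate 1 stood well above the other 3 libraries, while replicate 2 exceeded the higher ctrl library by 1.07-fold. The log2 fold change was 0.41 (SE 0.18, 95% interval -0.01 to 0.82, limma adjusted p = 0.194). Phf8oe replicate 2 set the lower size: without it the log2 fold change was 0.68, and without Phf8oe replicate 1 it was 0.14. The spread in these fits comes from the ctrl libraries alone, so no test is read from them.

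Cntn1 encodes contactin 1, a lipid-anchored immunoglobulin superfamily protein that is the axonal partner of glial neurofascin and is also made in the oligodendrocyte lineage. It was measured at 35798 and 31438 in ctrl, against 48407 and 37112 in Phf8oe. The groups were apart by a small margin, Phf8oe replicate 2 being 1.04 times ctrl replicate 1. The log2 fold change was 0.34 (SE 0.14, 95% interval 0.01 to 0.67, limma adjusted p = 0.182). It was 0.53 without Phf8oe replicate 2 and 0.15 without Phf8oe replicate 1, fits whose spread comes from the ctrl libraries alone. The ratio of Nfasc to Cntn1, 2 partners at the paranode, can be read within each library with no scaling between libraries. It was 225 and 268 Nfasc counts per 100 Cntn1 counts in ctrl and 273 and 244 in Phf8oe, so the groups overlapped (two-sided exact permutation p = 0.667, the smallest possible with 2 against 2 libraries being 0.333).

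Cntn2, contactin 2 or TAG-1, gathers potassium channels at the juxtaparanode and is made by both neurons and myelinating glia. It was the scarcest of the 7 in reads, with 94 and 85 normalized counts in ctrl and 153 and 119 in Phf8oe. Both Phf8oe libraries were higher, with a log2 fold change of 0.59 (SE 0.24, 95% interval 0.04 to 1.13, limma adjusted p = 0.162). Between 84 and 160 estimated reads lay behind these values, so counting error alone reached 10.9% of the level in 1 library, against at most 3.29% for the remaining adhesion genes. Nfasc and Cntn2 are next to each other on the same strand of chromosome 13 in the RefSeq assembly. On the far side of Cntn2, Tmem81, a membrane protein gene on the other strand, rose 1.97-fold, from 113 and 146 to 253 and 255 (limma adjusted p = 0.0287).

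Cadm4, also called nectin-like 4, is the glial member of a family of immunoglobulin adhesion proteins and binds Cadm2 and Cadm3 of the axon. It was measured at 35072 and 30825 in ctrl and at 35296 and 26068 in Phf8oe. The groups overlapped, the Phf8oe libraries holding both the highest and the lowest value. The log2 fold change was -0.12 (SE 0.16, 95% interval -0.48 to 0.24, limma adjusted p = 0.679), and its sign turned without Phf8oe replicate 2 (0.10). The interval leaves room for a decrease or a small increase, so it does not show that Cadm4 was unaffected.

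Genes beside the adhesion genes were read as a check on overlapping or shared reads. Within 30000 bases of a member in the RefSeq assembly lay 13 other tested genes, of which Tmem81 rose, Plaur fell and 11 did not pass. Plaur, the urokinase receptor gene near Cadm4, went from 147 and 153 to 41 and 74 (limma adjusted p = 0.0288). Cd22, the neighbour of Mag and likewise a sialic acid-binding lectin, stood at 68 and 55 in ctrl and 142 and 79 in Phf8oe (adjusted p = 0.165), with Phf8oe replicate 1 highest as for Mag.

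**Figure D2:**
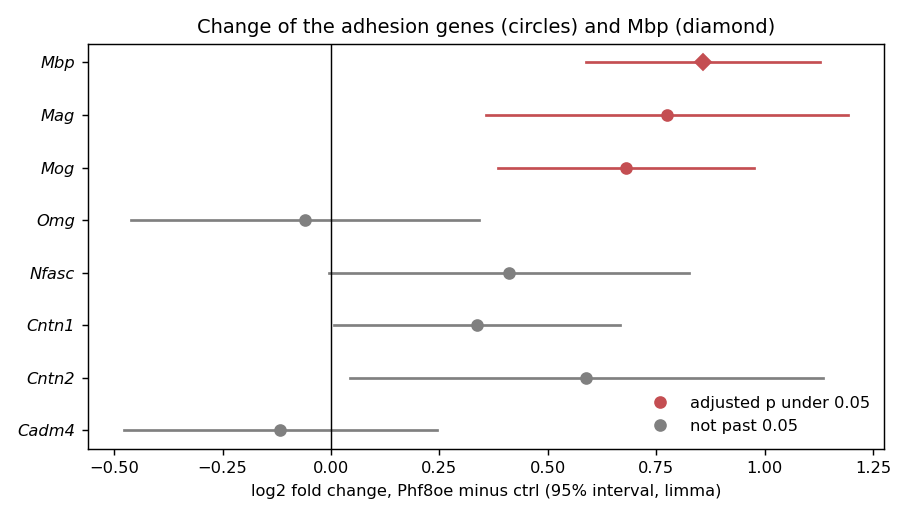
Log2 fold change of Phf8oe minus ctrl (horizontal axis) with its 95% interval from limma for 7 adhesion genes (circles) and the compact myelin gene Mbp (diamond); red marks an adjusted p under 0.05. Mag at 0.78 and Mog at 0.68 are red, and the intervals of Nfasc, Omg and Cadm4 span 0.

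The promoters of Mag and Cadm4 are shown because Mag was called higher and Cadm4 was not called. They also lie far apart in CG dinucleotides among the promoters of the set. As the pair was picked on these grounds, a relation of CG number to the change in expression was not tested. Phf8 is known to bind chromatin at active promoters and to remove repressive methyl marks from histones there, and no chromatin was measured in the libraries described here. Each sequence runs from 250 bases before to 50 bases after the start, from RefSeq on GRCr8 (the counts were made on an older build), with CG in capitals. Mag lies at chr1:95290995-95291294 on the minus strand and Cadm4 at chr1:89202839-89203138 on the plus strand.
Mag: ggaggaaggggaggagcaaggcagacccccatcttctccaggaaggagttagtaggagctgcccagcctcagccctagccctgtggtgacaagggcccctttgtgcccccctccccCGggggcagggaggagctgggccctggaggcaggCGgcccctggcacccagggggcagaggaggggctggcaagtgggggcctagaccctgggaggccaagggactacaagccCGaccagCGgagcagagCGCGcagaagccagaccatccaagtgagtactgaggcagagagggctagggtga
Cadm4: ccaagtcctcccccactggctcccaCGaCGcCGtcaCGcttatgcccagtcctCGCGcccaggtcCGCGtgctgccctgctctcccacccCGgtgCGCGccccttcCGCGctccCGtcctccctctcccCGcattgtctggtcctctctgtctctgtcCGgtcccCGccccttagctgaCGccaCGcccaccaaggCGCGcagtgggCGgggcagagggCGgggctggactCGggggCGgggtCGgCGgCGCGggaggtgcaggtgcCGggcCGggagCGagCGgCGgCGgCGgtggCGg
The Mag promoter holds 6 CG dinucleotides, near the median of 7 over all 33469 promoters of 300 bases in the table, and the Cadm4 promoter holds 37, more than 95.2% of them. Promoters were matched for 6 of the 8 genes, with 2 entries for Nfasc. There was no entry for Ermn or for Mog, which was also called higher. Cntn1 holds 5 CG, Omg 4, Cntn2 19 and the Nfasc entries 4 and 6. The letters ACAAAG, searched on both strands as the core to which Sox proteins bind, occur 1 time in the Mag promoter and in none of the other 6 entries, and 18.8% of all promoters hold them. The related letters ACAAT, also searched on both strands and sharing their first 4 letters with ACAAAG, occur 1 time each in Cadm4, Cntn1, Omg and both Nfasc entries, and in 33.7% of all promoters.

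The adhesion genes differed in how they split the Phf8oe libraries. Mag, Nfasc, Cntn1, Cntn2, Omg and Cadm4 were higher in Phf8oe replicate 1 than in replicate 2, by 1.13-fold (Omg) to 1.46-fold (Nfasc), whereas Mog was higher in replicate 2. Over all tested genes 48.5% were higher in replicate 1. Phf8 itself was 1.91-fold higher in replicate 2, so Mog stood highest in the library with the most Phf8 and the other 6 did not; with 2 libraries no relation to the Phf8 level can be tested. Gaps between the Phf8oe libraries larger than those of Mag and Nfasc were found in 13.8% and 13.1% of all tested genes.

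Ratios within a library show which adhesion genes kept pace with Mbp, a main protein of compact myelin, which went from 184442 and 173338 in ctrl to 340486 and 308875 in Phf8oe. Per 1000 counts of Mbp, Mag stood at 186 and 220 in ctrl and at 218 and 167 in Phf8oe. Mog stood at 6.5 and 6.8 in ctrl and at 4.99 and 6.92 in Phf8oe, so for both genes the groups overlapped. Cadm4 went from 190 and 178 to 104 and 84.4 per 1000 counts of Mbp, and Omg from 9.32 and 7 to 4.33 and 4.22. The ratios of Nfasc, Cntn1 and Cntn2 to Mbp were also lower in both Phf8oe libraries, giving 5 of 7 genes, against 91.0% of all tested genes, since Mbp itself rose; none of the 7 was higher in both, against 0.710%. Relative to Cadm4, Mag went from 97.6 and 124 per 100 counts to 211 and 198 (two-sided exact permutation p = 0.333, the smallest that 2 against 2 libraries allow). The same smallest p was reached by 13 of the 21 ratios between adhesion genes, in which the groups did not overlap, against 57.3% of all pairs of tested genes above 0 in every library, so the share among the adhesion genes is near the background; none of them can pass a threshold of 0.05 in this design.

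**Figure D3:**
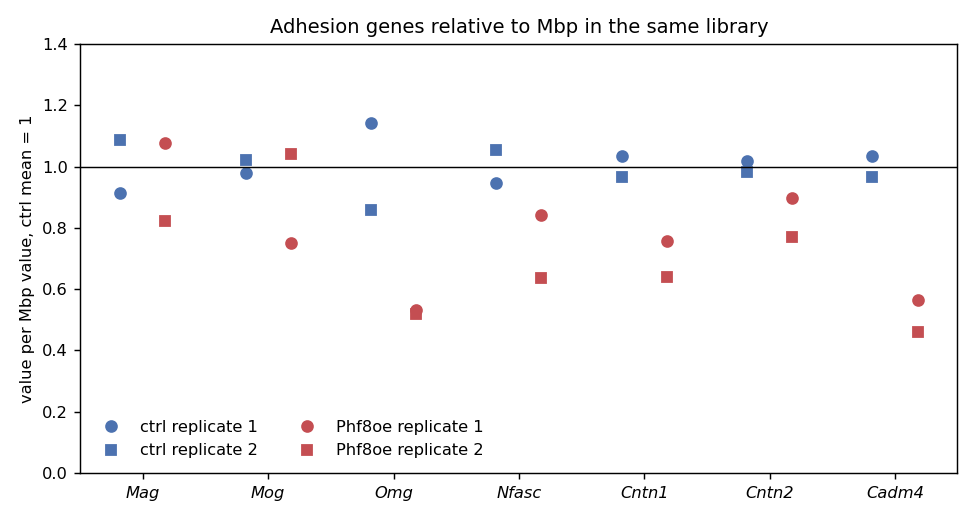
Value of each adhesion gene divided by that of Mbp in the same library, with the ctrl mean set to 1 (vertical axis, from 0); blue is ctrl, red Phf8oe, circles replicate 1 and squares replicate 2. Mag and Mog overlap between the groups, and Omg and Cadm4 lie lowest in Phf8oe.

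The genes with the most similar profile to Mag and Mog over the 4 libraries were sought among 10593 genes with a mean of at least 100, by the Euclidean distance of centred log2 values. For Mag these were Adap1 (distance 0.04), the receptor tyrosine kinase gene Tyro3 (0.09) and C1ql2 (0.09). Tyro3 went from 705 and 772 to 1414 and 1012 and was called (limma adjusted p = 0.0426). For Mog they were Plekhb1 (0.05), Hpdl (0.07) and Mthfd2 (0.08), a mitochondrial folate enzyme. Plekhb1, a pleckstrin domain protein, went from 6847 and 6942 to 9936 and 12047. All 6 are near in these 4 libraries only, and no test goes with the distance.

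Among 16 measured adhesion partners and relatives, 3 fell and 13 did not pass the test, with none called higher (4.65% of all tested genes were called lower), and their median log2 fold change was -0.07. Cadm3, an axonal ligand of Cadm4, fell 6.08-fold, from 2574 and 1408 to 260 and 375 (limma adjusted p = 0.0264). Cadm1, a broadly expressed relative, fell 1.91-fold, from 11923 and 9372 to 4863 and 6306, and Chl1, close homologue of L1, fell 2.15-fold, from 2267 and 2241 to 1090 and 1007. Thus 2 of the 4 Cadm genes fell while Cadm4 and Cadm2 did not pass, Cadm2 standing at 1328 and 1518 in ctrl and 1831 and 1337 in Phf8oe. Cntnap1, the Caspr gene, stood at 320 and 389 in ctrl and 397 and 337 in Phf8oe. None of the 3 calls remained without ctrl replicate 1 or with no variance trend, and the replicate block and the fit without Phf8oe replicate 2 gave 2 and 5 calls in this list.

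The membrane skeleton ties these proteins to actin and spectrin. Of 17 measured linker genes 3 fell, against 4.65% of all tested genes, and 14 were not called, with a median log2 fold change of -0.07. Ezr, which encodes ezrin, a linker of membrane proteins to actin, fell 2.37-fold, from 5489 and 4026 to 1765 and 2231 (limma adjusted p = 0.0138). Msn, its relative moesin, fell 1.46-fold and Ank2, ankyrin B, an adaptor between spectrin and membrane proteins, fell 1.32-fold. The linker calls depended on the setting, with 0 without ctrl replicate 1, with the replicate block or with no variance trend, 1 without ctrl replicate 2, 6 without Phf8oe replicate 2, 1 with equal upper quartiles and 1 without robust moderation. Epb41l3, which encodes a spectrin-binding linker of paranodal axons, stood at 400 and 401 in ctrl and 345 and 293 in Phf8oe, and was picked after its values were seen.

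The receptors and ligands around Mag and Omg gave no calls in the reported fit. None of 6 measured genes of the Nogo receptor complex passed in limma, and their median log2 fold change was -0.29. The 2 with an unadjusted p under 0.05 both stood lower in Phf8oe. Ngfr went from 257 and 166 to 62 and 119 (adjusted p = 0.078), and Rtn4r, the Nogo receptor gene, from 50 and 77 to 43 and 25 (adjusted p = 0.163). Rtn4, the Nogo gene, and Tnfrsf19, a co-receptor, had the highest means. Rtn4 stood at 36859 and 29548 in ctrl and 35709 and 29634 in Phf8oe, and Tnfrsf19 at 6021 and 8049 and at 11199 and 8092. Of 5 ganglioside synthesis genes, which make the axonal ligands of Mag, none passed (2 at an unadjusted p under 0.05), St3gal5 standing at 4420 and 3525 in ctrl and 2831 and 3126 in Phf8oe, and St3gal2 at 3271 and 2967 and at 2456 and 2533. None of 3 genes for proteases that cut adhesion proteins from the membrane passed (1 at an unadjusted p under 0.05), Adam17 standing at 13585 and 13505 in ctrl and 11798 and 12797 in Phf8oe, and Bace1 at 4235 and 4368 and at 5082 and 3974. Of 5 genes for the matrix of the node, Ncan, neurocan, fell 1.44-fold, from 17804 and 15566 to 12343 and 10760 (limma adjusted p = 0.0309), and 4 did not pass. All 5 had an unadjusted p under 0.05, against 26.3% of all tested genes, Tnr and Vcan standing lower like Ncan and Bcan and Hapln2 higher. Bcan was at the edge (limma unadjusted p = 0.0497). The count was 4 with either other pseudocount or the stricter filter, 3 with the replicate block and 2 with no variance trend. Tnr, tenascin R, stood at 26602 and 32369 in ctrl and 24129 and 18367 in Phf8oe, and Bcan, brevican, at 20034 and 22074 and at 34850 and 23561. The call of Ncan was lost without either ctrl library, with the replicate block and with no variance trend. Without Phf8oe replicate 2 the matrix and Nogo receptor lists had 3 calls each, the ganglioside list 2 and the protease list 1, and without Phf8oe replicate 1 the matrix and Nogo receptor lists had 2 each.

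**Figure D4:**
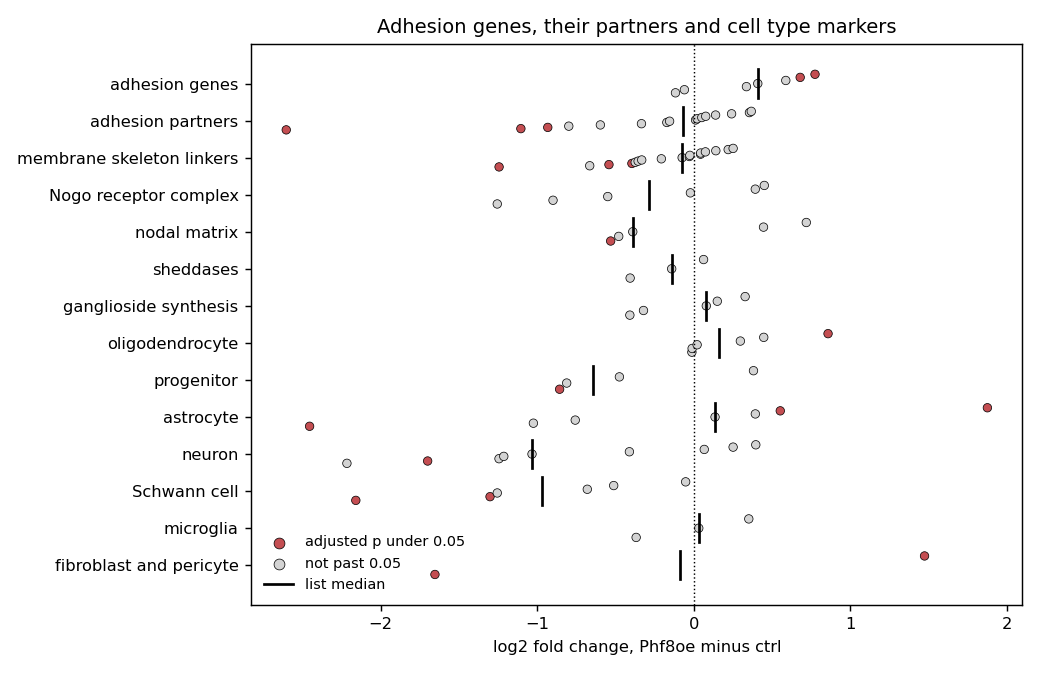
Log2 fold change of Phf8oe minus ctrl (horizontal axis) of each measured gene in the adhesion set, its partner lists and lists of cell type markers; red marks an adjusted p under 0.05 and black bars the list medians. The adhesion genes have a median of 0.41, the adhesion partners of -0.07 and the neuronal markers of -1.03.

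Several adhesion genes are made by more than 1 cell type, so marker lists are given beside them. Of 6 oligodendrocyte markers read here Mbp rose, and the summed level of the list was 275064 and 265646 in ctrl and 448540 and 425379 in Phf8oe. Most of that gap was Mbp, and the other 5 summed to 90622 and 92308 in ctrl and 108054 and 116504 in Phf8oe. Cnp and Mobp had log2 fold changes of 0.30 and 0.45 and did not pass (limma adjusted p = 0.126 and 0.157). Cldn11, Opalin and Aspa had -0.01, -0.01 and 0.02, and the list median was 0.16. Of 4 progenitor markers Pdgfra fell 1.81-fold and 3 did not pass. Cspg4 and Ptprz1 had log2 fold changes of -0.81 and -0.47 (limma adjusted p = 0.145 and 0.0511). Gpr17 went the other way, with 0.38 (limma adjusted p = 0.344). Of 9 measured neuronal markers, beside Nfasc, Cntn1 and Cntn2, Nefm fell 3.25-fold, and the list summed to 30203 and 24339 in ctrl and 17670 and 18235 in Phf8oe, with Snap25 at most at 28 and Rbfox3 at most at 38 in any library. The lower sum came mostly from Nefl, Nefm and Tubb3. The other 6 summed to 13760 and 14192 in ctrl and 14335 and 12625 in Phf8oe, so that the groups overlapped, but these 6 did not move together. Map2 stood at 6951 and 8226 in ctrl and 8319 and 7550 in Phf8oe, and Syt1 at 5331 and 4564 and at 4146 and 3320 (limma adjusted p = 0.0938). Elavl3 stood at 1230 and 1061 and at 1572 and 1440 (limma adjusted p = 0.0783). Elavl4 had a log2 fold change of 0.25, Snap25 of -1.03 and Rbfox3 of -1.21, and none of them was called. Of 6 Schwann cell markers, beside Mag, which Schwann cells also make, Tfap2a fell 2.46-fold and Egr2 4.47-fold. The Schwann list summed to 70941 and 55260 in ctrl and 41724 and 46641 in Phf8oe, mostly Erbb3, without which the sums were 5349 and 4606 and then 3877 and 3427. Of 7 astrocyte markers Gfap fell 5.48-fold, Aldh1l1 rose 3.67-fold, from only 9 and 10 to 32 and 44, and Slc1a3 rose 1.47-fold. The scarce Slc1a2 and Gja1 had log2 fold changes of -1.02 and -0.76 and did not pass (limma adjusted p = 0.162 and 0.151). Aldoc and Fgfr3 had 0.14 and 0.39 and did not pass. The list summed to 127438 and 140368 in ctrl and 81665 and 81634 in Phf8oe. The direction of that sum was set by Gfap. Without it the other 6, mostly Aldoc and Fgfr3, summed to 48297 and 59632 in ctrl and 70831 and 62021 in Phf8oe. These subsets were chosen after their values were seen. The 3 microglial markers measured summed to at most 307 in any library and none passed (none at an unadjusted p under 0.05), the most abundant being Cd68 and P2ry12, and of 2 fibroblast genes Col1a1 fell 3.15-fold and Postn rose 2.78-fold, with sums of at most 498. The part of other cell types in the values of the adhesion genes was not tested.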

How the data were processed

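Expression was read from 1 table of whole numbers for 4 libraries, made from read pairs of 150 bases. Tools named in the submitters' processing notes are bcl2fastq 2.20, Trimmomatic 0.36, STAR 2.5.2b and DESeq2, and the builds are rn6 and Rnor_6.0. Gene counter, strand setting and annotation: not given in the sources used here. Although labelled raw, the signal deposited by the authors holds normalized counts: whole numbers were skipped or doubled at a regular spacing, with 1 read worth 0.8445 (ctrl replicate 1), 1.0176 (ctrl replicate 2), 0.9548 (Phf8oe replicate 1) and 1.4159 (Phf8oe replicate 2), and each library's median ratio to the geometric mean over libraries was from 1.001 to 1.003. The table therefore went to limma 3.58.1 (R 4.3.3) on log2(value + 1), which understates fold changes of low genes, and not to the edgeR test set down for raw counts.

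Genes with at least 10 in at least 2 libraries were tested, 14368 of 14410. Group was the only term, with a variance trend and robust moderation (2 residual degrees of freedom, with a prior median of 6.99). P-values are two-sided, with Benjamini-Hochberg adjustment over all genes. The procedure was tested on simulated data with the same added spread for all genes, so that test does not tell how firm the calls here are. Alternatives were other pseudocounts (0.5, 10), filters, scalings, variance settings, limma-voom on estimated reads, a replicate block and leaving out each library. Scripts used Python 3.11.15.

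The members and lists were chosen with earlier results of these data known. Named were the members, Phf8, overlapping or adjacent genes, list genes past the threshold (up to 5, or 3 for cell types; otherwise the 2 with the highest mean) and the 3 closest profiles to Mag and Mog. Other names were chosen after their values were seen. Some genes taken by that rule are given as counts only, and some are not reported here.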

Additional observations from a re-analysis of the deposited data

How the results depend on the processing

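Changing the pseudocount, the filter, the scaling or the tool (limma-voom on estimated reads) left 2 adhesion genes called. Without robust moderation 1 was called, Mog, Mag standing at log2 fold change 0.78 with adjusted p = 0.0598. With no variance trend 0 adhesion genes, 0 list genes and 0 of all genes were called in limma (3, 34 and 3133 at an unadjusted p under 0.05), Mag at 0.78 (adjusted p = 0.178) and Mog at 0.68 (adjusted p = 0.145). Replicate numbers are shared between the groups, but same-numbered libraries did not deviate together (r = -0.126 over genes). With the replicate block 0 adhesion genes (4 at an unadjusted p under 0.05), 8 list genes and 373 genes were called, Mag at 0.78 (adjusted p = 0.097) and Mog at 0.68 (adjusted p = 0.0564). With the numbers crossed, chosen after seeing the data, 2 adhesion genes, 36 list genes and 2354 genes were called, against 17 list genes and 1098 genes in the reported fit. Equal upper quartiles gave 609 genes higher and 589 lower against 430 and 668.

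Leaving out 1 library at a time, adhesion genes called ranged from 0 to 4, list genes from 0 to 36 and all genes from 20 to 2145; the fewest of all genes came without ctrl replicate 1 and the most without Phf8oe replicate 2. The log2 fold change ranged from 0.51 to 1.04 for Mag, 0.51 to 0.85 for Mog, 0.14 to 0.68 for Nfasc, 0.15 to 0.53 for Cntn1, 0.41 to 0.77 for Cntn2, -0.31 to 0.19 for Omg (0.03 without Phf8oe replicate 2) and -0.33 to 0.10 for Cadm4. The spread then comes from the other group alone; otherwise the cause was not tested. Depth limits Cntn2 most.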
